A study of Homo sapiens with 10 samples.

Results

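The 35 genes described here are enzymes of cholesterol synthesis, genes of lipoprotein uptake, SREBP2 with the proteins that control it, sterol transport and storage genes, and the liver X receptors. They were chosen by symbol from the deposited gene annotation and joined by gene identifier to the raw counts. All 35 were among the 32152 genes of the count table, and all 35 passed the filter on low counts that left 19163 genes for testing. SQLE, INSIG1 and CYP51A1 served as markers of the set.

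Cholesterol in a cell comes from synthesis and from uptake, and a single feedback loop sets both. When sterol in the endoplasmic reticulum runs low, the escort protein SCAP carries the transcription factor SREBP2 to the Golgi, where a pair of proteases releases its active part, and SREBP2 then switches on the genes of the pathway. When sterol is plentiful, INSIG proteins hold SCAP and SREBP2 back. Oxysterols act from the other side, through the liver X receptors, which raise genes of cholesterol export and lower uptake.

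The libraries were polyA RNA-seq of human embryonic stem cells of the established line WAe009-A (H9), undifferentiated and grown on Matrigel. There were 5 libraries labelled as knockout of KCNH2, the gene of the hERG1 potassium channel, and 5 of wild-type (WT) cells of the same line. The study asked which transcripts depend on KCNH2 in pluripotent cells. The edited cells are KCNH2-/- in the growth protocol and "KCNH2 knockdown" in the genotype field, and the labels do not say whether they are 1 clone, although the titles of all 5 knockout libraries share 1 prefix whose meaning is not stated. WT cells grew in TeSR-E8 and knockout cells in mTeSR Plus, so genotype and medium cannot be told apart in any comparison below. Separate cultures are not named for the replicates, and each p-value therefore reflects the spread among these 10 libraries alone, some or all of which may be technical.

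Library totals were 29788732 to 40587206 counts (knockout) and 28615751 to 47319933 counts (WT). Every gene of the set had at least 120 counts in every library, and the largest count was 25117. Counting error weighs most on the genes with the lowest counts, SOAT1 (120 at the lowest), OSBPL6 (165) and INSIG2 (265). Knockout replicate 3 stood apart from the other knockout libraries on the second principal component of all genes (-59.1 against -2.3 to 13.9), and WT replicates 2 and 3 (-10.1 and -32.2) lay apart from the other WT libraries (25 to 35.8). The mRNA of KCNH2 itself stood at 12.2 ± 1.001 CPM with the edit and 15.5 ± 0.75 CPM without it (SD, n = 5 each, as for all later values with ±), and mRNA level does not check an edit of unstated position. All 8 pluripotency markers examined were present, with a summed level of 6944 to 7334 CPM in knockout libraries and 6193 to 6453 CPM in WT, 3 of them higher and 0 lower. The 6 endoderm and liver markers of 8 in the table summed to 1.26 to 1.88 CPM in knockout libraries and 3.42 to 6.51 CPM in WT, and 5 of the 6 stayed under 1 CPM in all libraries. Of the 3 tested, 1 was lower and 0 higher, FOXA2 standing at 0.40 against 3.73 CPM. Of 7 fibroblast markers, 5 were in the table, with a sum of 830.9 to 955.3 CPM against 950.4 to 1027 CPM. Of the 4 tested, 2 were lower and 0 higher. Most of the sum was THY1, at 729.8 against 729.4 CPM. COL1A1 stood at 71.6 against 102.7 CPM and COL1A2 at 81.7 against 136.0 CPM. The 5 neural markers summed to 457.2 to 506.1 CPM against 483.8 to 505.6 CPM, almost all of it NES and TUBB3. Of 3 tested neural markers 2 were lower and 0 higher: TUBB3 stood at 73.4 against 87.9 CPM and DCX at 5.18 against 8.27 CPM. Of all tested genes, 21.9% were higher and 24.1% lower. The part of these marker differences in the results below was not tested. In bulk RNA, fewer cells that express a gene and less RNA per cell cannot be told apart.

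CPM here are counts per 1e6 counts of TMM-scaled libraries. "Lower" and "higher" mean an adjusted p under 0.05 in the quasi-likelihood test of edgeR, with Benjamini-Hochberg adjustment over all 19163 genes, fold changes are knockout over WT on the log2 scale, and adjusted p-values are from that test. Values of single libraries are given in the order of replicates 1 to 5.

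Promoter sequences of SREBF2, INSIG1 and INSIG2 are shown because SREBF2 and INSIG1 were lower in the knockout, while INSIG2, whose protein has the same role as INSIG1, was higher. They are from RefSeq (GRCh38.p14), plus strand, 5′ to 3′, cut before the GENCODE 29 start of each gene except for a 30-base stretch of INSIG1 around a match. Capitals mark 3 motifs on either strand. The first is TCACCCCAC, the core of the classical sterol regulatory element. The second is TCACGTGA, a palindromic E-box. The third is CCAAT, the box bound by the SREBP partner NF-Y.
SREBF2, chr22:41832855-41833078: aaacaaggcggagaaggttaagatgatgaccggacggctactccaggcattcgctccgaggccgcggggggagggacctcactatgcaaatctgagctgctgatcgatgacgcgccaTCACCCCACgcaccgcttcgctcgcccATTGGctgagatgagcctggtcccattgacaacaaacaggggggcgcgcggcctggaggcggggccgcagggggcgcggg
INSIG1, chr7:155297628-155297775: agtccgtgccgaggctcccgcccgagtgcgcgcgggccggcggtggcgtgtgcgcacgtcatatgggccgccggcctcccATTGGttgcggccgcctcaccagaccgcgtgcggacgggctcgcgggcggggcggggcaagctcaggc
INSIG1, chr7:155297811-155297840: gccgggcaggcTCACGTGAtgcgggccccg
INSIG2, chr2:118088221-118088451: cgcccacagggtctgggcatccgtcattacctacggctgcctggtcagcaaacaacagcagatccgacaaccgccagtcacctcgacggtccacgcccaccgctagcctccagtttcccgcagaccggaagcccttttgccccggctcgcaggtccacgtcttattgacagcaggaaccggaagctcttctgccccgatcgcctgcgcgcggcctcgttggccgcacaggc

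The motifs were searched on both strands in the 250 bases before each RefSeq start. TCACCCCAC was present in 0.358% of all 34943 windows and, of the 32 genes of the set with a window, in SREBF2 alone, 133 to 125 bases before the start. The looser TCACNCCAC, which includes that match, was present in 0.881% of windows and again in SREBF2 alone. The palindrome TCACGTGA was present in 0.856% of windows and in INSIG1 alone. CCAAT was found in 32.0% of all windows and in 23 of the 45 windows of the set. Counted per gene, where a gene with several windows has more chances to match, it was in 15 of 20 genes that were lower in the knockout, 1 of 4 that were higher and 5 of 8 not past the threshold. GGGCGG, the box bound by SP1, was found in 42.5% of all windows, in 36 of 45 windows of the set, and in 18 of 20, 4 of 4 and 6 of 8 of those genes. Shares per gene over all genes were not counted, so the split of genes by direction is not read as a result. A match is a description of letters, and these windows leave out elements farther from the start.

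Most genes of the set were lower in the knockout, by a modest amount. Of all tested genes, 46.0% passed the threshold in either direction. Of 35 genes, 22 (62.9%) were lower, where 24.1% of all tested genes were lower, and 4 (11.4%) were higher, where 21.9% of all tested genes were higher. The median log2 fold change was -0.22 over the set and 0.002 over all tested genes. The 22 lower genes fell to different degrees, from 6.62% for SCAP to 37.5% for MYLIP below the WT mean. The 4 higher genes were INSIG2, NPC2, OSBPL6 and NR1H2, and the 9 genes not past the threshold had means from 4.8% below to 6.26% above WT. The 5 knockout and 5 WT libraries did not overlap for 24 genes (68.6%), where 34.0% of all tested genes did not overlap. Knockout libraries lay below WT for 20 of the 24 (17.7% of all tested genes) and above WT for 4 (16.3% of all tested genes). FDFT1 and SCAP were lower with overlapping libraries.

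**Figure D1:**
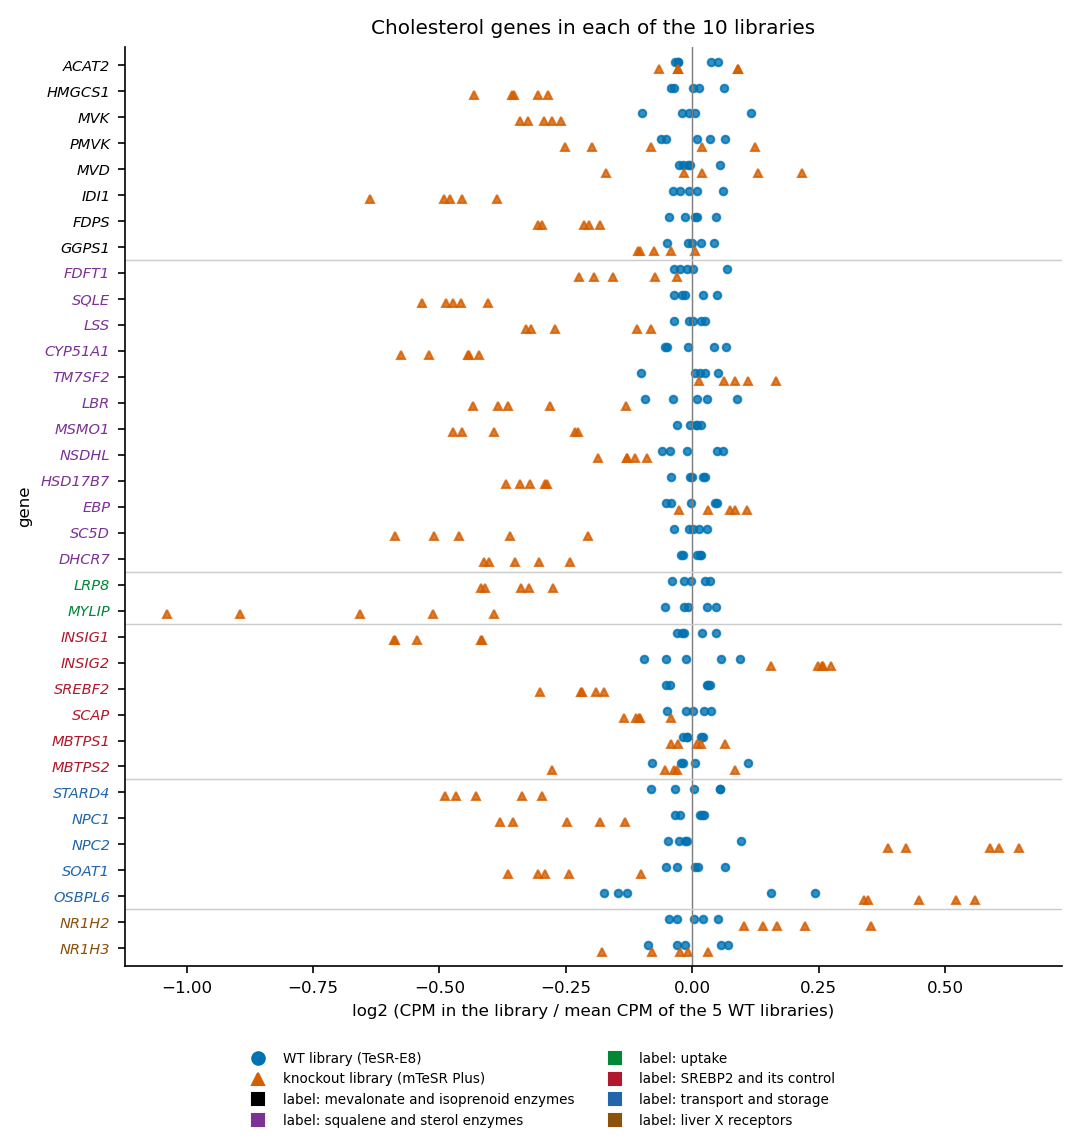
Level of each gene in each library as log2 of its CPM over the mean CPM of the 5 WT libraries (x axis), 1 row per gene, with WT libraries as circles and knockout libraries as triangles and gene names coloured by role. Triangles lie left of all circles for 20 genes and right of all circles for INSIG2, NPC2, OSBPL6 and NR1H2, and MYLIP has the widest spread of triangles.

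Enzymes that turn acetyl-CoA into isoprenoid units were split. Of 8, 4 were lower and 0 higher: HMGCS1, MVK, IDI1 and FDPS. HMGCS1 makes HMG-CoA and is a classical SREBP2 target. It measured 353, 341, 342, 358 and 323 CPM in knockout libraries and 437, 424, 425, 440.4 and 456 CPM in WT. The lowest WT library lay well above the highest knockout library, with a log2 fold change of -0.35 (SE 0.03, adjusted p = 7.12e-06). IDI1, the isomerase that makes the reactive isoprenoid unit, measured 65.2, 62.1, 60.7, 61.2 and 54.8 CPM against 83.0, 85.7, 84.8, 88.9 and 83.8 CPM. Its knockout libraries all lay below WT, and its log2 fold change of -0.49 (SE 0.04, adjusted p = 3.68e-06) was the most negative of these 8. MVK, mevalonate kinase, measured 15.62, 15.28, 15.98, 15.79 and 15.1 CPM in knockout libraries and 19.0, 18.9, 17.9, 20.7 and 19.2 CPM in WT. The groups did not overlap, and the log2 fold change was -0.30 (SE 0.04, adjusted p = 0.00018). FDPS, farnesyl diphosphate synthase, went from 297.0 ± 7.12 CPM in WT to 251.5 ± 9.78 CPM in the knockout, 15.3% lower.

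The other 4 of these enzymes did not pass the threshold. ACAT2, the thiolase of the first step, measured 163.5 ± 8.35 CPM in knockout libraries and 162.0 ± 4.65 CPM in WT (adjusted p = 0.792). MVD, the decarboxylase that follows the kinases, measured 106.1 ± 10.7 and 103.1 ± 2.35 CPM (0.59), and its knockout libraries spread from 91.6 to 119.7 CPM, on both sides of WT. PMVK, phosphomevalonate kinase, had a log2 fold change of -0.07 (0.405) and GGPS1, which makes the lipid used for protein geranylgeranylation, one of -0.06 (0.118). Neighbouring steps of 1 linear route, MVK, PMVK and MVD, had fold changes of -0.30, -0.07 and 0.04. Reads of ACAT2 may be shared with TCP1, whose exons overlap on the opposite strand with 205% of its mean count, those of MVK with MMAB (152%) and those of GGPS1 with ARID4B (86.1%), since a strand setting for the counting was not given. TCP1 itself was higher, with a log2 fold change of 0.25 (adjusted p = 4.03e-05), while MMAB stood at 0.01 and ARID4B at 0.03. The part of shared reads in the values of ACAT2, MVK and GGPS1 was not tested.

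Most enzymes from squalene onwards were lower. Of 12, 10 were lower and 0 higher, with a median log2 fold change of -0.32. SQLE, the oxygenase that commits squalene to sterols (ENSG00000104549, chromosome 8, 124998497 to 125022283, GRCh38), measured 141, 142, 149, 144 and 136 CPM in knockout libraries and 192, 195, 200.2, 204 and 195 CPM in WT. The gap between the groups was wider than the range within either, and the log2 fold change was -0.47 (SE 0.03, adjusted p = 2.68e-07), the smallest p of the set. CYP51A1, lanosterol demethylase (ENSG00000001630, chromosome 7, 92112151 to 92134803), measured 82.5, 77.0, 81.2, 81.3 and 74.1 CPM against 106, 107, 109.7, 114 and 116 CPM. All knockout libraries were lower, at a log2 fold change of -0.48 (SE 0.04, adjusted p = 1.77e-06). SC5D, a late desaturase, measured 98.9, 93.7, 122, 109.7 and 102 CPM in knockout libraries and 142, 137, 144, 141 and 140.2 CPM in WT. The knockout values were uneven, with replicate 3 the highest, and still lay below WT (log2 fold change -0.42, SE 0.06, adjusted p = 0.000137).

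Among the remaining sterol enzymes, MSMO1 was lower by 21.6%, DHCR7, the last reductase of its branch, by 21.0% and LSS, which closes the sterol rings, by 14.1%. HSD17B7 went from 36.5 ± 0.68 CPM in WT to 29.2 ± 0.69 CPM. NSDHL, which acts with MSMO1 and HSD17B7 in removing methyl groups, was lower by 8.59% and FDFT1, squalene synthase, by 8.85%. EBP, a sterol isomerase, did not pass the threshold, at 73.5 ± 2.67 CPM in knockout libraries and 70.8 ± 2.29 CPM in WT (adjusted p = 0.192). Reads of HSD17B7 may be shared with its pseudogene HSD17B7P2, which held 13.3% of its mean count and had a log2 fold change of -0.31 itself.

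LBR and TM7SF2 encode a pair of reductases for the same step, LBR also being a protein of the nuclear envelope. LBR was lower (72.8 ± 6.15 CPM in the knockout, 90.6 ± 4.30 CPM in WT, log2 fold change -0.32, SE 0.05, adjusted p = 0.000584). TM7SF2 was not past the threshold (39.4 ± 1.55 and 37.1 ± 1.48 CPM, log2 fold change 0.09, SE 0.04, adjusted p = 0.0841). The ratio of LBR to TM7SF2 counts within a library does not depend on library scaling. It was 2.07, 1.79, 1.73, 1.86 and 1.79 in the knockout and 2.25, 2.41, 2.45, 2.57 and 2.55 in WT, without overlap. The difference was -0.41 on the log2 scale, without correction for length and GC. With the correction the log2 fold changes were -0.31 for LBR and 0.01 for TM7SF2. The LBR to TM7SF2 ratio and the other 2 ratios given below were chosen after the values were known and are given as descriptions, without p-values. TM7SF2 shares exons on the same strand with VPS51, which held 277% of its mean count.

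**Figure D2:**
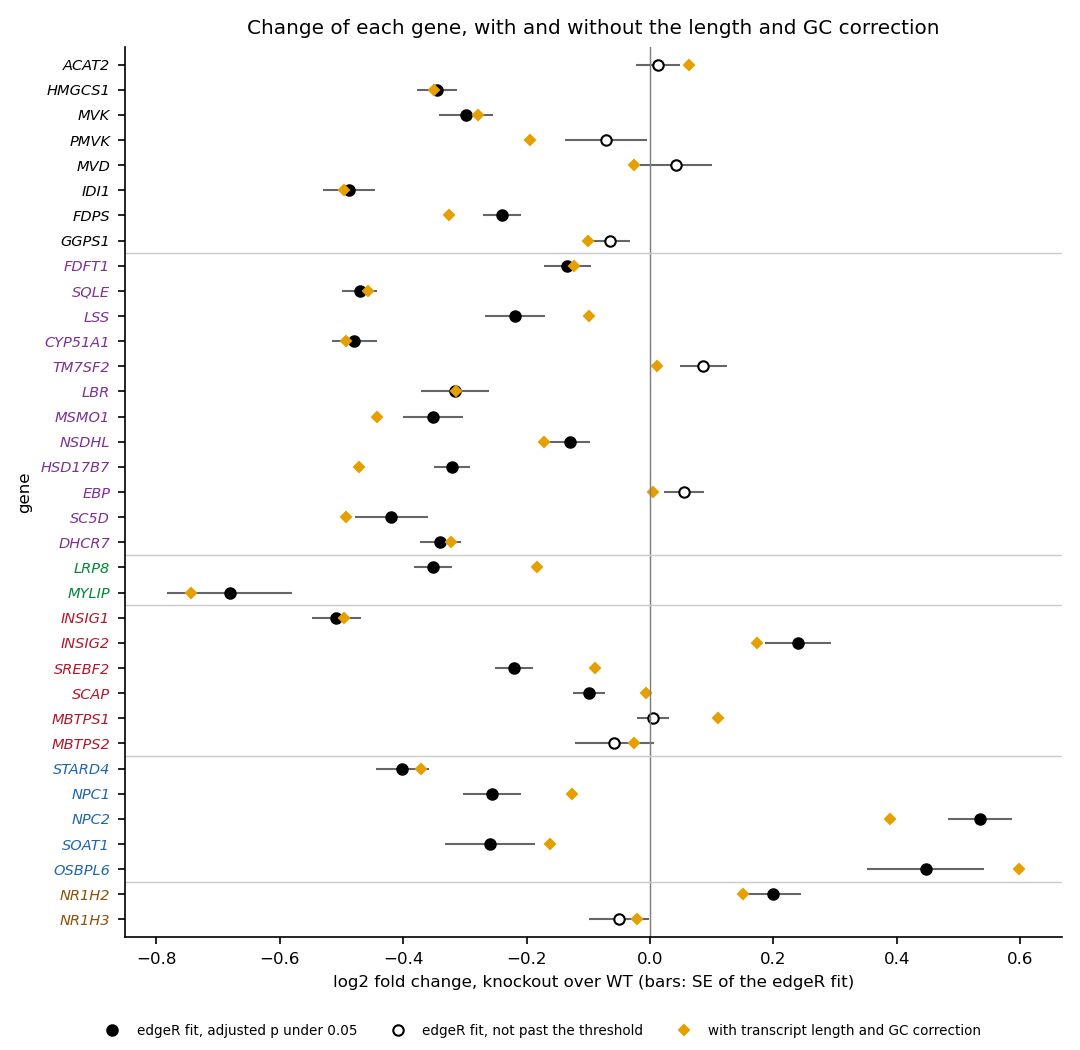
Log2 fold change of knockout over WT (x axis) for each gene, 1 row per gene and grouped by role, as circles with bars of 1 SE from the edgeR fit (filled where the adjusted p is under 0.05) and as diamonds after correction of each library for transcript length and GC. Circles and diamonds lie close together for SQLE, CYP51A1, INSIG1, IDI1 and HMGCS1, while the diamonds of LRP8, SREBF2, SCAP, LSS and NPC1 lie nearer to 0.

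The fit was repeated with each library corrected for transcript length and GC. Transcripts had a median length of 3110 bases for the 22 lower genes, 2294 for the 4 higher genes, 2895 over the set and 2677 over all tested genes with a length. After the correction 21 genes of the set were lower and 5 higher, and the median went to -0.16, with 0.005 over all tested genes. Over all tested genes, more were higher than lower in the corrected fit, where more were lower than higher without the correction. The 5 knockout and 5 WT libraries did not overlap for 21 genes of the set after the correction, against 24 without it. A corrected share without overlap over all genes is not given, so the count of 21 is a description only. SQLE (-0.46), CYP51A1 (-0.49), INSIG1 (-0.50), IDI1 (-0.50) and HMGCS1 (-0.35) moved little. LSS (-0.10), SCAP (-0.006) and SOAT1 (-0.16) were no longer past the threshold, and LRP8 (-0.18), SREBF2 (-0.09) and NPC1 (-0.13) stayed past it at a reduced size. PMVK (-0.19) and GGPS1 (-0.10) became lower, so that 6 of the 8 isoprenoid enzymes and 9 of the 12 later enzymes were lower, and MBTPS1 (0.11) became higher.

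Both uptake genes of the set were lower. MYLIP encodes an E3 ubiquitin ligase that sends lipoprotein receptors to degradation and is a known target of the liver X receptors. It measured 27.9, 25.7, 17.8, 19.7 and 23.2 CPM in knockout libraries and 35.3, 36.2, 36.4, 37.8 and 37.4 CPM in WT. The knockout libraries were all lower, and replicates 3 and 4 most so. Its log2 fold change of -0.68 (SE 0.10, adjusted p = 0.000209) was the most negative of the set, and its coefficient of variation of 18.1% in the knockout the largest. LRP8, a receptor for lipoproteins and for reelin, measured 95.3, 100.1, 105, 101 and 94.8 CPM against 129.7, 125, 127, 123 and 129 CPM, a log2 fold change of -0.35 (SE 0.03, adjusted p = 5.10e-06). Its groups were clearly apart, and unlike MYLIP its knockout libraries were tight.

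SREBP2 and its control genes moved in different directions. SREBF2, which encodes SREBP2 (ENSG00000198911, chromosome 22, 41833079 to 41907308), measured 432, 446, 440.4, 432 and 408 CPM in knockout libraries and 485, 513, 515, 488 and 513 CPM in WT. It was lower without overlap, by 14.2% (log2 fold change -0.22, SE 0.03, adjusted p = 0.000116). INSIG1, the retention protein that SREBP itself induces (ENSG00000186480, chromosome 7, 155297776 to 155310235), measured 50.0, 50.0, 56.3, 56.3 and 51.6 CPM against 74.1, 73.6, 77.6, 74.3 and 76.2 CPM. This was a log2 fold change of -0.51 (SE 0.04, adjusted p = 2.14e-06), the second most negative of the set. INSIG2, the related retention protein that is not driven by SREBP2 in the same way, measured 9.41, 10.2, 10.1, 10.1 and 10.03 CPM in knockout libraries and 8.15, 8.78, 8.36, 7.90 and 9.02 CPM in WT. It was higher without overlap, though by only 0.24 on the log2 scale (SE 0.05, adjusted p = 0.00294).

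The ratio of INSIG1 to INSIG2 counts was 5.32, 4.89, 5.58, 5.58 and 5.14 in the knockout and 9.10, 8.37, 9.28, 9.40 and 8.45 in WT. The difference of -0.75 on the log2 scale combines a lower and a higher gene whose groups did not overlap, and it is given as a description without a p-value. It is not corrected for length and GC. With the correction the log2 fold changes were -0.50 for INSIG1 and 0.17 for INSIG2. SCAP, the escort, was lower by 6.62% with overlapping libraries (adjusted p = 0.00811). The proteases that release SREBP2 were not past the threshold: MBTPS1 measured 85.1 ± 2.51 and 84.8 ± 1.05 CPM (adjusted p = 0.901) and MBTPS2 13.8 ± 1.22 and 14.4 ± 0.71 CPM (0.489).

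**Figure D3:**
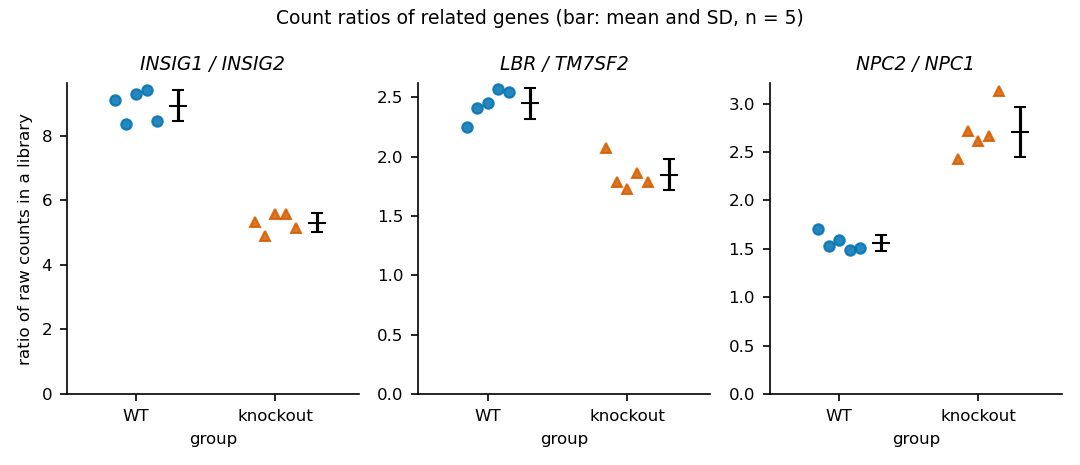
Ratio of raw counts within each library (y axis, from 0) for INSIG1 over INSIG2, LBR over TM7SF2 and NPC2 over NPC1, with WT libraries as circles, knockout libraries as triangles, and the mean with SD (n = 5) beside them. The groups do not overlap in any panel: the first 2 ratios are lower in the knockout, and NPC2 over NPC1 is higher.

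All 5 transport and storage genes passed the threshold, 3 lower and 2 higher. NPC2 and NPC1 hand cholesterol in sequence out of the lysosome. NPC2 measured 104, 107, 121, 119.9 and 125 CPM in knockout libraries and 85.2, 78.9, 79.2, 77.1 and 78.3 CPM in WT. It was 44.8% higher, the largest rise of the set before the length and GC correction (log2 fold change 0.53, SE 0.05, adjusted p = 9.87e-06), with no overlap. After the correction OSBPL6 (0.60) rose more than NPC2 (0.39). NPC1 was lower, at 42.7 ± 3.18 CPM against 51.0 ± 0.95 CPM (log2 fold change -0.26, SE 0.05, adjusted p = 0.000849). The NPC2 to NPC1 count ratio was 2.43, 2.72, 2.61, 2.67 and 3.13 in the knockout and 1.70, 1.53, 1.59, 1.49 and 1.51 in WT, a difference of 0.79 on the log2 scale, again given without a p-value. This ratio is not corrected for length and GC. With the correction the log2 fold changes were 0.39 for NPC2 and -0.13 for NPC1. Exons of ISCA2 overlap NPC2 on the opposite strand, with 40.0% of its mean count and a log2 fold change of 0.24. Exons of RMC1 overlap NPC1 with 26.7% and a log2 fold change of 0.12.

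STARD4, a soluble sterol carrier and SREBP2 target, measured 57.4, 55.9, 61.2, 62.9 and 55.1 CPM in knockout libraries and 80.2, 75.4, 80.2, 73.0 and 77.5 CPM in WT. It was lower without overlap (log2 fold change -0.40, SE 0.04, adjusted p = 2.01e-05), and its antisense neighbour STARD4-AS1 held 14.7% of its mean count. OSBPL6, an oxysterol-binding protein relative, measured 6.69, 7.21, 7.78, 7.59 and 6.72 CPM against 4.68, 4.84, 6.25, 4.78 and 5.89 CPM. It was higher without overlap (log2 fold change 0.45, SE 0.10, adjusted p = 0.00237), although WT replicate 3 at 6.25 CPM came close to the lowest knockout library. SOAT1, which esterifies cholesterol for storage, was at 3.62 ± 0.25 and 4.33 ± 0.13 CPM, 16.4% lower (adjusted p = 0.0119).

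Of the liver X receptors, NR1H2 was higher and NR1H3 was not past the threshold. NR1H2, the broadly expressed form, measured 45.4, 47.5, 54.1, 46.7 and 49.4 CPM in knockout libraries and 42.4, 43.8, 41.0, 41.5 and 43.0 CPM in WT, giving a log2 change of 0.20 (SE 0.05, adjusted p = 0.00348) without overlap. NR1H3 measured 15.9 ± 0.87 and 16.5 ± 0.74 CPM (adjusted p = 0.425), and exons of ACP2, with 87.4% of its mean count, overlap it on the opposite strand. ACP2 itself was lower, with a log2 fold change of -0.32 (adjusted p = 0.00172).

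Levels of different genes were compared per kilobase of 1 transcript per gene. In WT, FDPS (200.9 ± 4.81 CPM per kb) and FDFT1 (196.5 ± 5.69 CPM per kb), the enzymes at the branch point to squalene, were the most abundant and overlapped each other. HMGCS1 (124.4 CPM per kb), SREBF2 (95.96), NPC2 (77.03), DHCR7 (71.04) and SQLE (66.64) followed, each apart from its neighbours over the 5 libraries. MSMO1 (57.9 CPM per kb), SC5D (57.4) and MVD (56.5) could not be ordered. Between IDI1 (25.3 CPM per kb) and MBTPS1 (19.6 CPM per kb), INSIG1, LBR, MYLIP, TM7SF2, NR1H2 and NSDHL formed a chain of neighbours whose ranges overlapped. In all, 15 of 34 neighbouring pairs overlapped. MVK (6.96 CPM per kb) was below the other 19 synthesis enzymes of the set, INSIG2 (3.26) was below INSIG1 (24.97), and SOAT1 (0.63) and OSBPL6 (0.50) closed the order.

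**Figure D4:**
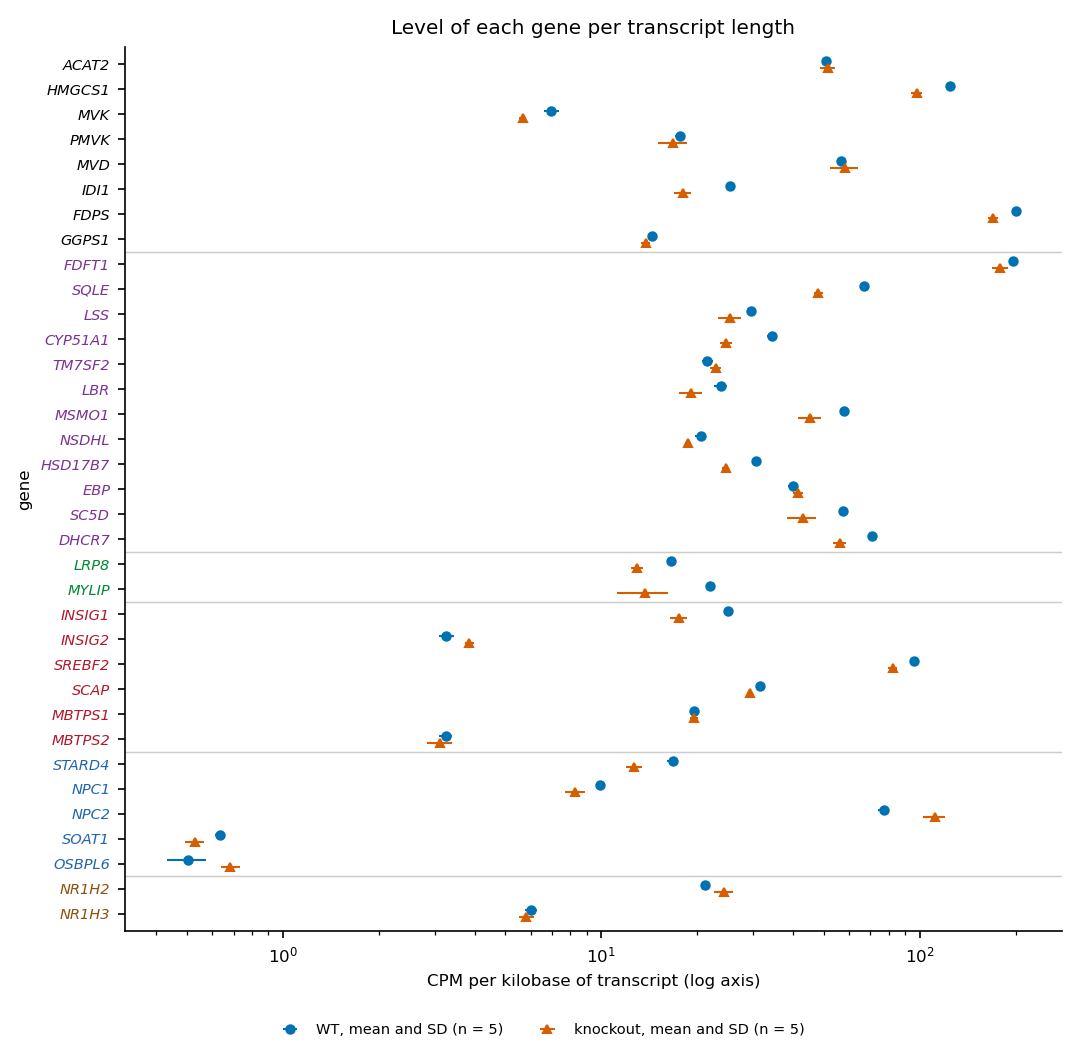
CPM per kilobase of transcript (x axis, log scale) of each gene, with WT means as circles and knockout means as triangles, bars of 1 SD over 5 libraries, and genes grouped by role. Levels span from 0.50 CPM per kb for OSBPL6 to 200.9 for FDPS in WT, and the differences between groups are small beside the differences between genes.

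The set was described per library as the mean over genes of log2 CPM minus the gene's WT mean. For the 20 enzymes this was -0.17, -0.15, -0.17, -0.19 and -0.24 for the isoprenoid steps and -0.26, -0.26, -0.21, -0.25 and -0.29 for the squalene and sterol steps in the knockout. WT libraries ran from -0.015 to 0.031 and from -0.016 to 0.021. No knockout library came near the WT range, and replicate 5 was the lowest for both. Knockout replicate 3 lay among the other knockout libraries for the isoprenoid steps and was the highest of them for the squalene and sterol steps. Replicate 3 was also the highest knockout library over all 35 genes (-0.134), for the transport genes (0.093) and for the liver X receptors (0.192), and the lowest for the uptake genes (-0.656). The transport genes, which moved both ways, had a knockout range of -0.052 to 0.093 that contained the WT range of -0.047 to 0.055. The coefficient of variation was larger in the knockout than in WT for 30 of 35 genes, with a median of 5.49% against 2.87%. The share over all tested genes was not computed, so this count is not read as a trait of the set.

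Lists of genes around the pathway are given beside the 21.9% of all tested genes that were higher and the 24.1% that were lower. Both percentages are from the fit without the length and GC correction. Of 22 genes of the dolichol, ubiquinone and protein prenylation branches, which use the same isoprenoids, 10 were higher and 3 lower (median log2 fold change 0.12). They included RABGGTB, a subunit of a prenyltransferase for RAB proteins (0.36, adjusted p = 2.03e-05), and the ubiquinone synthesis genes COQ3 (0.41), COQ5 (0.30) and COQ7 (0.41). After the length and GC correction the counts were again 10 and 3, with RABGGTB at 0.19, COQ3 at 0.24 and COQ5 at 0.20. Of 11 electron donors and partners of the sterol enzymes, 7 were higher and 1 lower (median 0.09): ERG28, a scaffold of the demethylation complex, measured 67.0 ± 1.18 CPM against 58.7 ± 0.66 CPM (adjusted p = 4.91e-05). CYB5R3, a cytochrome b5 reductase, stood at 0.21 and CYB5R1 at 0.26, while CYB5A, cytochrome b5, was lower (-0.14). Of 14 genes of sterol-dependent degradation and retention, 3 were higher and 2 lower (median -0.05), with UFD1 at 0.24, RNF139 at 0.19, RNF145 at -0.31 and NPLOC4 at -0.10. After the correction 4 were higher and 1 lower, the median was 0.05 and NPLOC4 stood at 0.006. Of 22 other sterol transfer genes, 6 were higher and 4 lower (median -0.02), with the ER sterol transporters GRAMD1A (0.47) and GRAMD1B (-0.39) on opposite sides, SCP2 at 0.13 and OSBPL11 at -0.20. After the correction this list had 4 higher, 4 lower and a median of 0.04. The counts of the degradation and sterol transfer lists, with or without the correction, are not read as results about those lists.

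Counts for genes of lipoprotein reception and cholesterol export are set beside all tested genes, of which 24.1% were lower and 21.9% higher without the length and GC correction. Of 15 receptors and adaptors, 9 were lower and 1 higher (median -0.15), and after the correction 6 were lower and 1 higher (median -0.03). SORL1, a sorting receptor, measured 114.1 ± 4.25 CPM in knockout libraries and 186.8 ± 9.53 CPM in WT (log2 fold change -0.71, adjusted p = 1.10e-07). LRP10 stood at -0.73, LRP1 at -0.38 and LRP6 at -0.36. After the length and GC correction the values were -0.50 for SORL1, -0.55 for LRP10, -0.12 for LRP1 and -0.21 for LRP6. Of 19 tested genes of export, oxysterols and liver X receptor targets, 7 were lower and 3 higher (median -0.14). After the correction 6 were lower and 4 higher, with a median of the opposite sign (0.02). The corrected counts of this list are not read as a result about it. ABCA1, which loads cholesterol onto apolipoproteins and is a liver X receptor target, measured 9.49 ± 0.82 CPM against 19.2 ± 1.40 CPM (log2 fold change -1.02, SE 0.07, adjusted p = 7.78e-07, and -0.82 after the correction). ABCG1, an exporter induced by the same receptors, measured 6.46 ± 1.02 CPM against 12.0 ± 0.55 CPM (-0.89, SE 0.10, adjusted p = 2.00e-05). MYLIP and these 2 targets were lower and NR1H2 mRNA was higher, and a link between them was not tested. The 3 higher genes of the same list were CYP27A1 (0.70), CH25H (1.35) and SULT2B1 (0.35). LPCAT3, also of this list, was not past the threshold (-0.16, adjusted p = 0.0791). LIPA, the lysosomal lipase that frees cholesterol from esters, stood at -0.33 and ABCA2 at -0.27 (-0.09 after the correction). Of 19 lipid genes named as SREBP targets, 14 were lower and 2 higher (median -0.26), and 11 and 2 after the correction (median -0.16), with FASN at -0.46 (-0.27 after it), ACSL3 at -0.32, PNPLA3 at -0.82 and FABP5, a fatty acid binding protein, at 0.47 (0.28 after it).

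**Figure D5:**
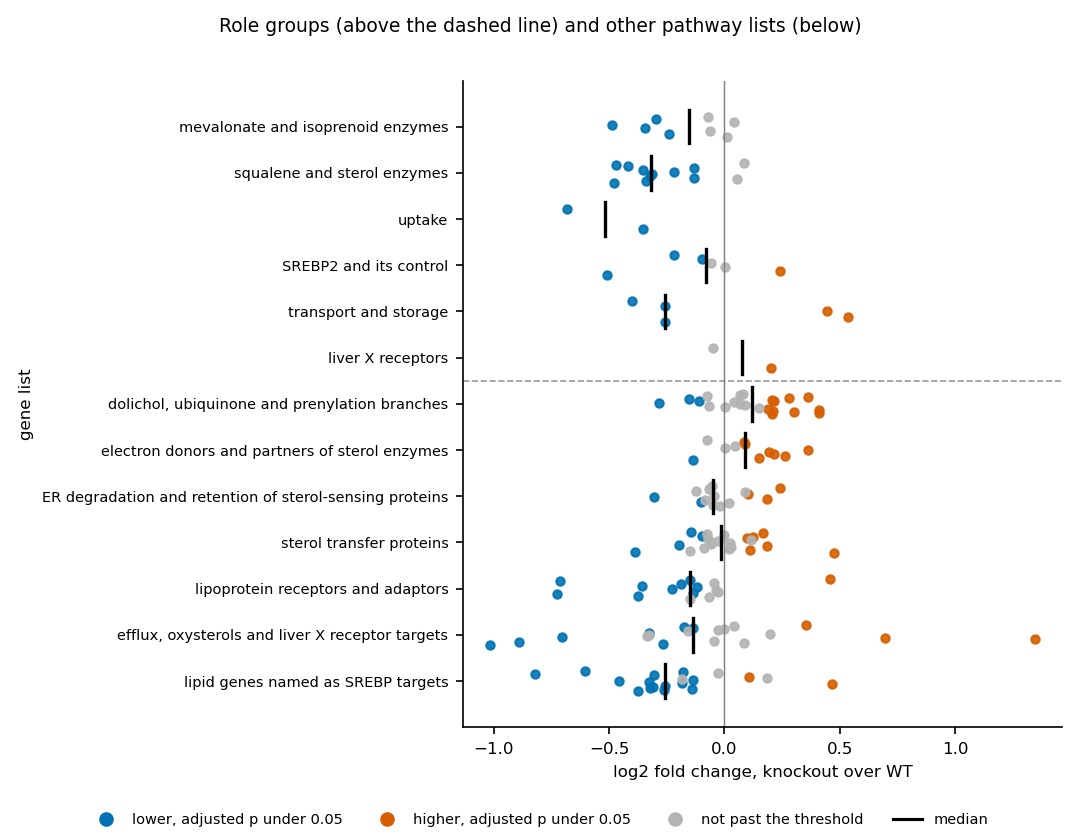
Log2 fold change of knockout over WT (x axis) of every tested gene in the 6 role groups of the set (above the dashed line) and in 7 lists of other pathway genes (below), coloured by call, with the median of each list as a bar. Medians of the enzyme and uptake groups lie left of 0, and those of the dolichol, ubiquinone and prenylation list (0.12) and of the enzyme partners (0.09) lie right of 0, in values before the length and GC correction.

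An adjusted p under 0.05 was given by the authors' deposited table to the same 26 genes of the set, 22 lower and 4 higher. The call column of the authors' deposited table, whose rule is not given in that table, marks 1 gene of the set, MYLIP. In the authors' deposited table, log2 fold changes were -0.45 for SQLE, -0.49 for INSIG1, -0.63 for MYLIP and 0.54 for NPC2.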

How the data were processed

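PolyA RNA of 10 libraries was sequenced with 150 paired-end cycles, per the labels' protocols. The authors deposited raw counts per gene, and a table of knockout against WT with a mean normalised signal, a log2 fold change, its standard error, a score that is their quotient, a p-value and an adjusted p-value. DESeq2, R 3.6.3 and the build hg38 appear in the submitters' processing notes. Aligner, counter and annotation: not given in the sources used here. The deposited table gave symbols and the authors' values quoted.

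Groups and replicate numbers came from the titles. The test was edgeR 4.0.16 under R 4.3.3 (TMM, filterByExpr, glmQLFit, glmQLFTest on group). The fitting step was tested on simulated counts. Transcript length and GC are from GENCODE 29, with the APPRIS principal transcript, or else the longest, as 1 transcript per gene. The length correction entered a smooth trend (natural splines with 5 degrees of freedom) as an offset. Pairs of libraries within a group differed by more than sampling noise (chi-square per degree of freedom 3.59 to 26.2), and each counted as 1 replicate.

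Other alternatives were DESeq2 1.42.0 size factors and Wald test, no filter, at least 1 CPM in at least 5 libraries, a replicate block and fits without libraries. Every gene of the set is named. All libraries are given for the 3 markers, for up to 3 called genes of each role with the largest fold changes, and for those called higher. From each list of other genes, the 4 with the smallest p are named, and from the export list its higher genes and LPCAT3 as well. The members, lists and rules were chosen with earlier results of these data known. Counts carry no molecular identifiers.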

Additional observations from a re-analysis of the deposited data

Results flagged for a closer look

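Each of the 35 genes was checked for a library far from the other 4 of its group, in 70 groups of 5, and 3 libraries were found. Chance flags about 1 in 20 groups. WT replicate 1 had the highest MVD level of WT, at 107.1 CPM, with the others between 101.2 and 102.7 CPM. It also had the highest NPC2 level of WT, at 85.22 CPM against 77.07 to 79.17 CPM, and still lay below all knockout libraries. Knockout replicate 1 had the lowest INSIG2 level of the knockout, at 9.408 CPM against 10.03 to 10.21 CPM, and still lay above all WT libraries.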

How the results depend on the processing

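Of the 26 genes of the set past the threshold, 21 kept their direction and stayed past it under all 18 alternatives, and 25 did so in all 10 fits that left out 1 library. In those 10 fits, 21 to 22 genes were lower and 4 to 5 higher. The exception was FDFT1, at -0.099 without knockout replicate 1. TM7SF2 passed without knockout replicate 4 (0.11) and EBP without knockout replicate 1 (0.087). Without knockout 3, WT 2 and WT 3, 19 genes were lower and 4 higher, and NSDHL (-0.10), SCAP (-0.07) and SOAT1 (-0.27) were no longer past the threshold, in a fit with fewer samples. Beyond the set, CYB5A (-0.12), NPLOC4 (-0.09), RNF139 (0.17) and OSBPL11 (-0.14) also missed it there. The sign turned for values near 0. Leaving out 1 library at a time, ACAT2 ran from -0.0057 (without knockout replicate 2) to 0.0334, MVD from -0.0044 (without knockout replicate 3) to 0.1029, and MBTPS1 from -0.0101 (without knockout replicate 3; -0.0001 without WT replicate 5) to 0.0256. With both replicate 3 libraries left out MVD was -0.0117 and MBTPS1 -0.0133, and with WT 2 also left out -0.0151 and -0.0083. The length and GC correction gave -0.0257 for MVD and 0.0063 for NPLOC4. The same correction turned the median of the export list (-0.14 to 0.02), the degradation list (-0.05 to 0.05) and the sterol transfer list (-0.02 to 0.04). Causes of these changes were not tested. With the replicate number as a block, 4258 genes were higher and 4300 lower over all genes, and 4 and 22 in the set. Libraries with the same number did not deviate together throughout (correlation across genes from -0.16 to 0.70, and 1 of 5 knockout libraries correlated best with its own number). The value of 0.70 belonged to the replicate 3 libraries. Whether same-numbered libraries share a batch or a culture was not tested.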
